A study of Homo sapiens with 8 samples.

Results

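The genes described here are the 10 of MHC class I antigen presentation NLRC5, B2M, HLA-B, HLA-C, HLA-E, TAP1, TAP2, TAPBP, PSMB8 and PSMB9, chosen by symbol as the transactivator, the class I chains, the peptide loading machinery and the immunoproteasome. These genes and the lists of related genes below were chosen with earlier results of these data known. All 10 had at least 1 probe set naming no other gene, out of 19775 genes with such a probe set. They were compared between 4 arrays of HuCCT1 cells, an established human bile duct cancer line, with a control shRNA and 4 with an shRNA against YAP1, the transcriptional coactivator of the Hippo pathway. Per the labels' protocols, cells of both groups grew in tetracycline-free serum and received doxycycline at 100 ng/ml, started 3 days ahead of seeding, to switch on the shRNA. The hairpin against YAP1 is labelled YAP shRNA 1, and no second hairpin is among the 8 samples. Whether replicates came from separate cultures is not said, and the p-values therefore cover the spread among these 8 samples only, part or all of which may be technical. Each value is a log2 expression value of 1 probe set on 1 array, and a difference is YAP shRNA minus control shRNA. A gene was called risen or fallen when its limma p, adjusted by Benjamini-Hochberg over the 19775 genes, was below 0.05, and each gene is given by its main probe set, the one with the highest mean over the 8 arrays.

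MHC class I molecules show peptides from inside the cell to CD8 T cells. Proteasomes cut proteins into peptides, and in cells exposed to interferon the subunits PSMB8, PSMB9 and PSMB10 take the places of PSMB5, PSMB6 and PSMB7. The TAP1 and TAP2 transporter carries peptides into the endoplasmic reticulum, where tapasin (TAPBP) helps load them onto a heavy chain bound to beta-2 microglobulin (B2M). NLRC5 does not itself bind DNA: it is recruited by RFX, CREB and NFY factors to a shared promoter module, known best from class I heavy chain genes and B2M.

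Partner genes that came out differently (below) are shown here by the 250 bases before their starts. HLA-B and B2M encode the 2 chains of one molecule, and TAP1 and TAP2 the subunits of one transporter. The sequences are RefSeq's for GRCh38.p14, 5′ to 3′ on the gene's strand: HLA-B at chr6:31357180-31357429 (minus strand), B2M at chr15:44711267-44711516 (plus), TAP1 at chr6:32853705-32853954 (minus) and TAP2 at chr6:32838740-32838989 (minus). Capitals mark matches, on either strand, to the interferon-stimulated element GAAANNGAA, the CCAAT box CCAAT, the cAMP response core TGACG and the class I NF-kB element GGGGATTCC.
HLA-B: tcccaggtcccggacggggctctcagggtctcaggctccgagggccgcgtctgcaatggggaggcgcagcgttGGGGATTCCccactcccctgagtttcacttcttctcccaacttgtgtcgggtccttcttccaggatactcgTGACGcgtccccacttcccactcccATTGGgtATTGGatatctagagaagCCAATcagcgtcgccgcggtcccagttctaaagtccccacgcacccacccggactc
B2M: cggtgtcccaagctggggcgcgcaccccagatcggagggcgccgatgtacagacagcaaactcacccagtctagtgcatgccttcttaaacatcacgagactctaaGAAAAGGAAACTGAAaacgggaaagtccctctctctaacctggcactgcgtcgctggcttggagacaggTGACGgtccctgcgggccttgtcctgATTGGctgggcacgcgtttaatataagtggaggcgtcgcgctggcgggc
TAP1: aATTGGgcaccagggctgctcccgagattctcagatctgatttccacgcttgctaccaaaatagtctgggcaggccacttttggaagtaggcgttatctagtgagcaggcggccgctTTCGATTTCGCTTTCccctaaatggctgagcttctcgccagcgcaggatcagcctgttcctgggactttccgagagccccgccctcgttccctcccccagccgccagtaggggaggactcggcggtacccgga
TAP2: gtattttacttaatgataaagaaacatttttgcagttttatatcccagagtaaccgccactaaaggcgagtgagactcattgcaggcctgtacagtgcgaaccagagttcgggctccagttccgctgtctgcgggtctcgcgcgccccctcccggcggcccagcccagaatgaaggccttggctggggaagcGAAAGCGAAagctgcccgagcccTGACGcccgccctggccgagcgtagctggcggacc

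Windows of 300 bases, from 250 before to 50 after the start, were searched for 8 of the 10 genes; NLRC5 and HLA-E had no entry in the promoter table used. GAAANNGAA was found in B2M, TAP1, TAP2 and TAPBP, against 8.29% of 27305 promoters, with 2 overlapping matches each in B2M, TAP1 and TAPBP. CCAAT was found in B2M, HLA-B, HLA-C, TAP1 and PSMB9 (35.7% of promoters). TAP1 and PSMB9 lie on opposite strands with overlapping windows, and their CCAAT matches are the same bases. TGACG was found in B2M, HLA-B, HLA-C, TAP2, PSMB8 and PSMB9 (25% of promoters). GGGGATTCC was found in HLA-B (0.282% of promoters). The TEAD element GGAATG was found in B2M, across the start (14% of promoters). B2M and TAP2 each held both GAAANNGAA and TGACG, and each of the other 6 genes searched held 1 of them, a description made after the values were seen. This split depends on where the windows end, as the GAAANNGAA matches of TAP1 also lie upstream of PSMB9, outside its window. It also depends on the pattern searched. HLA-B and HLA-C hold tttcacttc before their starts, the parts of the element in the opposite order, which was not counted. The search therefore does not show that HLA-B and HLA-C lack such an element. All of these are matches of letters, not evidence of binding.

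Of the 10 genes, 8 rose with the YAP shRNA and 0 fell: NLRC5, HLA-B, HLA-C, HLA-E, TAP1, TAPBP, PSMB8 and PSMB9. B2M and TAP2 were not called. Over all genes 9.49% rose and 7.17% fell, and among genes at or above the median level 15.2% rose. The median difference of the 10 was 0.27 on the log2 scale, against 0.01 over all genes. For the same 8 genes all 4 YAP shRNA arrays lay above all 4 control arrays, as they did for 13.4% of all genes. These rises were small except for NLRC5, between 1.14-fold and 1.26-fold.

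**Figure D1:**
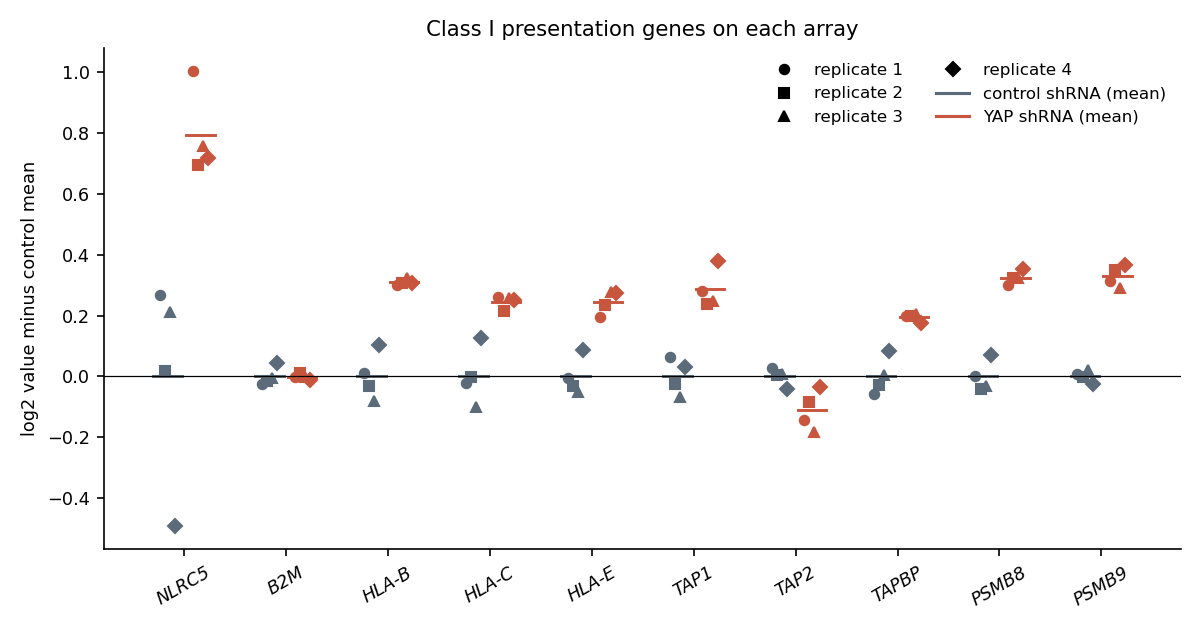
Values of the 10 class I presentation genes on each array, as the log2 value minus the control mean; grey marks are the 4 control shRNA arrays, red marks the 4 YAP shRNA arrays, marker shapes the replicate numbers and short lines the group means. NLRC5 lies highest, at 0.79, TAP2 lies at -0.11, B2M shows no gap between the groups, and control replicate 4 (diamond) is the lowest control for NLRC5 and the highest for HLA-B.

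NLRC5, the transactivator, changed most. It read 7.44, 7.19, 7.38 and 6.68 on control shRNA arrays 1 to 4, and 8.18, 7.87, 7.93 and 7.89 on YAP shRNA arrays 1 to 4. The groups did not overlap, and the widest spread was among the controls, where replicate 4 was lowest. The rise was 1.73-fold, a log2 difference of 0.79 ± 0.16 (standard error; limma adjusted p = 0.0105), and 0.63 without control replicate 4 (limma adjusted p = 0.00318). NLRC5 was measured by 1 probe set. It lies on chromosome 16, whose 714 genes had a median difference of 0.05, with 119 risen and 28 fallen. That is a larger share risen than over all genes (9.49%).

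The heavy chain genes rose together. HLA-B, a classical class I heavy chain, read 12.37, 12.33, 12.28 and 12.46 on the control arrays and 12.66, 12.67, 12.68 and 12.67 on the YAP shRNA arrays. The YAP shRNA values lay within a few hundredths of each other and above every control, with a difference of 0.31 ± 0.045 (standard error, n = 4 and 4; limma adjusted p = 0.00215). HLA-C, the other classical heavy chain gene measured, read 12.24, 12.26, 12.16 and 12.39 on the control arrays and 12.53, 12.48, 12.52 and 12.51 on the YAP shRNA arrays, a difference of 0.25 ± 0.051 (limma adjusted p = 0.0121). HLA-E, a non-classical heavy chain recognised by NK cell receptors, read 11.50, 11.48, 11.46 and 11.60 and then 11.70, 11.74, 11.78 and 11.78, a difference of 0.25 ± 0.044 (limma adjusted p = 0.00589). For all of HLA-B, HLA-C and HLA-E, control replicate 4 was the control nearest to the YAP shRNA arrays.

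B2M, the light chain that every class I heavy chain needs, did not pass the test. It read 13.51, 13.52, 13.53 and 13.58 on the control arrays and 13.53, 13.55, 13.54 and 13.53 on the YAP shRNA arrays. The YAP shRNA range lay wholly inside the control range. The difference was 0.00, with a 95% interval from -0.08 to 0.08 (limma adjusted p = 0.994). For this probe set alone, which stood at percentile 99.1 of control level, the interval leaves out a change as large as that of HLA-B. A second B2M probe set, at a control mean of 12.59, gave 0.05 ± 0.058 (standard error). A dimmer one, at a control mean of 5.80, gave 0.18 ± 0.105, and neither was called. Within each array, HLA-B minus B2M lay between -1.25 and -1.12 in controls and between -0.88 and -0.85 with the YAP shRNA, a description chosen after the values were seen.

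The subunits of the peptide transporter did not move together: TAP1 rose and TAP2 was not called. TAP1 read 10.05, 9.96, 9.92 and 10.02 on the control arrays and 10.27, 10.22, 10.23 and 10.37 on the YAP shRNA arrays, a rise of 0.29 ± 0.049 (limma adjusted p = 0.00457). TAP2 read 10.89, 10.87, 10.87 and 10.82 on the control arrays and 10.72, 10.78, 10.68 and 10.83 on the YAP shRNA arrays. YAP shRNA replicate 4 lay inside the control range and the other 3 below it, and the difference of -0.11 ± 0.043 was not called (limma adjusted p = 0.125). With genes below the median level left out, TAP2 was called fallen (limma adjusted p = 0.0421). Its other 3 probe sets gave 0.03, -0.09 and -0.10 and were not called. Within each array, TAP1 minus TAP2 lay between -0.96 and -0.81 in controls and between -0.56 and -0.45 with the YAP shRNA, again a description chosen after the values were seen. TAPBP, the loading chaperone tapasin, read 12.72, 12.75, 12.78 and 12.86 and then 12.98, 12.97, 12.98 and 12.95, a rise of 0.19 ± 0.041 (limma adjusted p = 0.0124). That call was lost when the gene's 3 probe sets were averaged, at 0.13 (limma adjusted p = 0.0648).

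The immunoproteasome genes had the smallest adjusted p-values of the 10. PSMB8 read 11.35, 11.31, 11.31 and 11.42 on the control arrays and 11.65, 11.67, 11.67 and 11.70 on the YAP shRNA arrays, a rise of 0.32 ± 0.039 (limma adjusted p = 0.000795). PSMB9 read 10.99, 10.98, 11.00 and 10.95 and then 11.29, 11.33, 11.27 and 11.35, a rise of 0.33 ± 0.035 (limma adjusted p = 0.000438). PSMB10, the remaining inducible catalytic subunit, rose by 0.38 (limma adjusted p = 0.000522). For these 3 genes no control array reached any YAP shRNA array. The constitutive subunits that these replace were not called, with differences of -0.03 for PSMB5, 0.01 for PSMB6 and -0.01 for PSMB7.

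Each inducible subunit was also set against its constitutive counterpart within each array. PSMB8 minus PSMB5 went from a mean of -0.89 ± 0.043 in controls to -0.53 ± 0.026 with the YAP shRNA (SD, n = 4 and 4), a shift of 0.35. PSMB9 minus PSMB6 went from -1.86 ± 0.026 to -1.54 ± 0.027, a shift of 0.32, and PSMB10 minus PSMB7 from -3.42 ± 0.076 to -3.02 ± 0.015, a shift of 0.39. In each of the 3 pairs all YAP shRNA arrays lay above all controls. The two-sided exact permutation p was 0.0286, the smallest that 4 arrays against 4 allow, and the same after Benjamini-Hochberg adjustment over the 3. PSMB8, PSMB9 and PSMB10 alone already separated the groups, so this p is not separate support. Such a separation, with all YAP shRNA arrays above all controls, was seen for 13.4% of all genes. The shifts show unequal change within the arrays, while the level of each pair's difference depends on the probes and was not read.

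**Figure D2:**
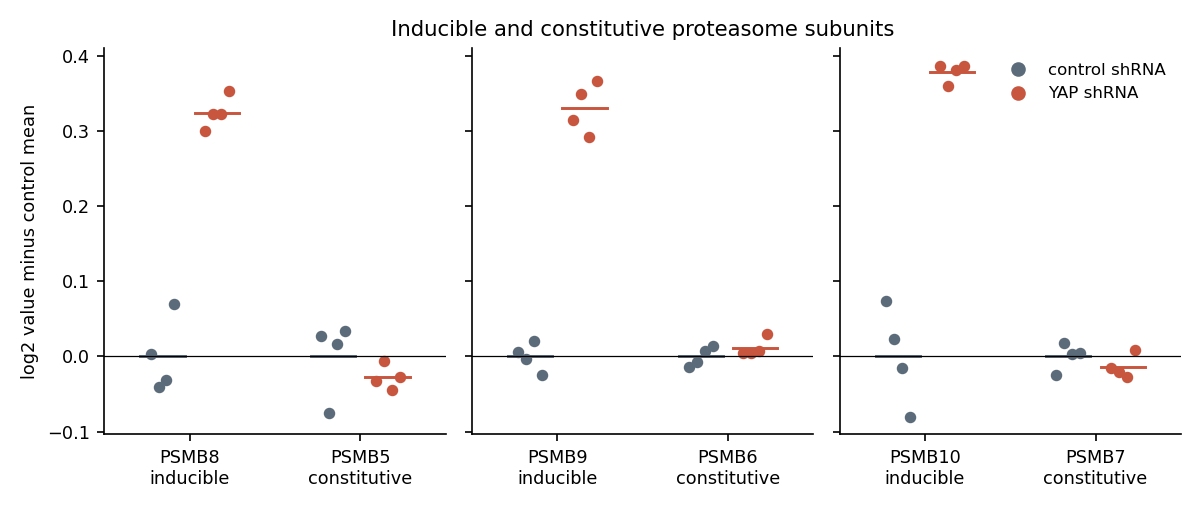
Log2 values minus the control mean for 3 inducible proteasome subunits and the constitutive subunits they replace; grey points are the 4 control shRNA arrays, red points the 4 YAP shRNA arrays and lines the group means. The inducible subunits lie 0.32 to 0.38 higher with the YAP shRNA, while PSMB5, PSMB6 and PSMB7 lie between -0.03 and 0.01.

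The 10 genes had 24 probe sets, of which 12 rose and 0 fell when every probe set with 1 symbol was tested together, where 6.95% of all 41097 rose. All 3 HLA-B probe sets rose, by 0.31 to 0.36, and so did 3 of 4 for HLA-C, which lay between 0.22 and 0.34. All of these carry the suffix _x_at, which the array's maker gives to probe sets that may also match other transcripts, so signal from HLA-B, HLA-C and other heavy chains may be mixed in them. HLA-E showed the opposite split: its main probe set, without that suffix, gave 0.25, while its probe sets with the suffix gave 0.08 each and were not called. Without probe sets of suffix _x_at or _s_at, 6 of the 10 genes remained measured and 4 rose: NLRC5, HLA-E, TAPBP and PSMB9.

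**Figure D3:**
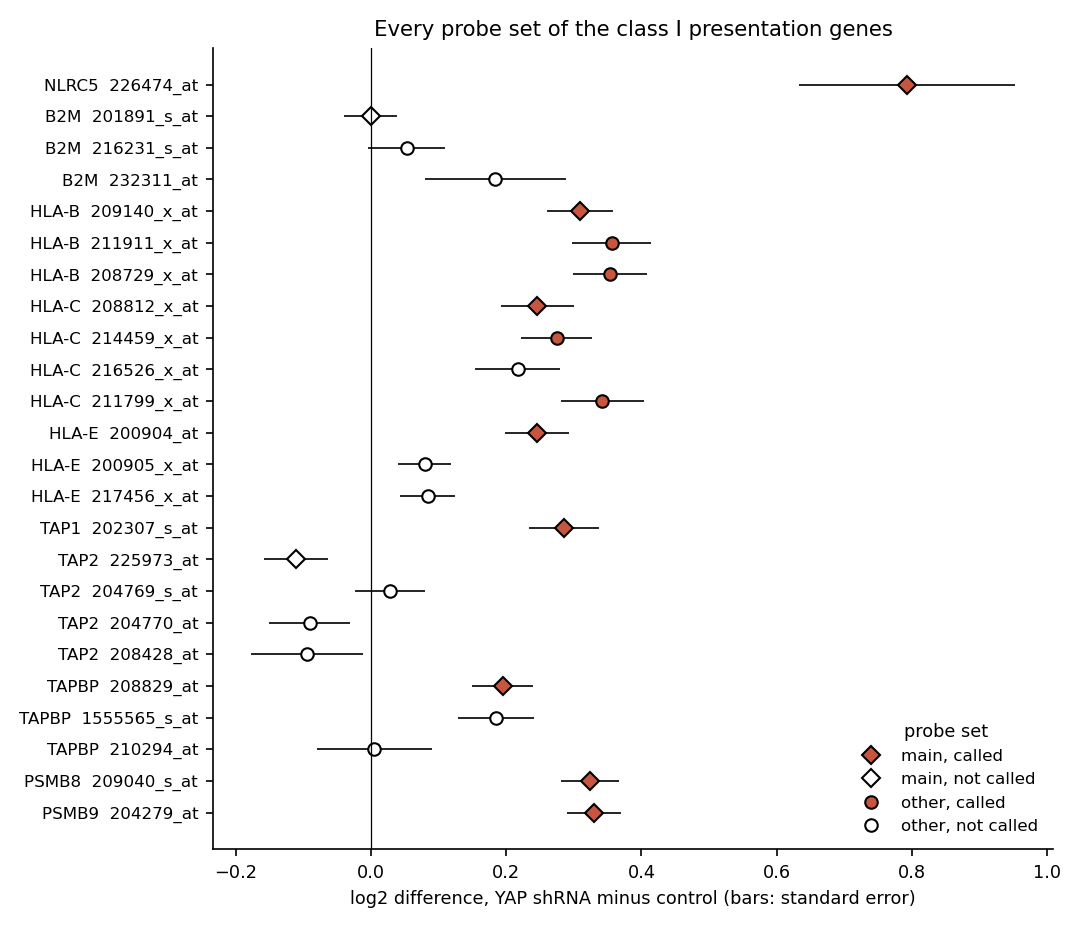
Log2 difference, YAP shRNA minus control shRNA, for each of the 24 probe sets of the 10 genes, with standard errors as bars; diamonds are main probe sets, circles the others, and red fill marks adjusted p below 0.05. HLA-B and HLA-C probe sets lie between 0.22 and 0.36, while no B2M or TAP2 probe set was called.

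Other class I and class I-like genes moved both ways, with 4 of 11 measured risen and 2 fallen and a median of -0.05. This list and the other 4 pathway lists below together had 14 risen and 5 fallen of 59. That is a larger share risen than over all genes (9.49%) or genes at or above the median level (15.2%). As the lists were chosen with earlier results of these data known, this share is a description only. Over all genes 7.17% fell. HLA-F and HLA-G, non-classical heavy chains, rose by 0.31 and 0.24. Both main probe sets carry the suffix _x_at, as do all 4 HLA-G probe sets. The HLA-F probe set without it, dim at a control mean of 5.60, rose by 0.28 when every probe set was tested. HFE, the iron-regulating class I-like protein, rose by 0.17 on a main probe set that also has this suffix. MR1, which presents vitamin B metabolites to MAIT cells, rose by 0.33. MICA, a stress ligand of the NK receptor NKG2D, fell by 0.17 and FCGRT, the neonatal Fc receptor, by 0.26, while MICB stood at -0.05 and was not called. MICA lies beside HLA-B on chromosome 6.

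Of 8 other loading and trimming genes, 2 rose and 0 fell, with a median of 0.00. TAPBPL, a tapasin-related peptide editor, rose by 0.42 (limma adjusted p = 0.00104) and ERAP2, an aminopeptidase that trims peptides, by 0.38 (limma adjusted p = 0.0011). ERAP1, its relative, stood at -0.03, and the general chaperones CALR, CANX and PDIA3 at -0.04, -0.04 and 0.03, none called. Of 8 other proteasome genes, 2 rose and 0 fell, with a median of 0.01: PSMB10 and PSME1, a subunit of the interferon-inducible PA28 activator, which rose by 0.12 (limma adjusted p = 0.0478).

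Among 16 transcription factors tied to class I promoters, 4 rose and 1 fell, with a median of 0.07. RFX5, the DNA-binding subunit of the RFX complex, rose by 0.29 (limma adjusted p = 0.00143), its partner RFXAP fell by 0.47 (limma adjusted p = 0.000809) and the other subunit, RFXANK, stood at 0.06 and was not called. NFKB1, IRF2 and IRF3 rose by 0.27, 0.26 and 0.24. IRF1, an interferon-induced activator of class I genes, stood at 0.10 with overlapping groups (limma adjusted p = 0.174).

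Of 16 interferons, receptors and their kinases, 2 rose and 2 fell, with a median of 0.03. IFNGR2, a chain of the interferon gamma receptor, rose by 0.33 and IFNLR1, of the lambda receptor, by 0.18. JAK2, a kinase of the gamma receptor, fell by 0.24 and IFNK, the epithelial interferon kappa, by 0.73. IFNG, the gene of interferon gamma, stood at a control mean of 4.60, where the median gene stood at 7.43, with a difference of 0.04 that was not called. Without control replicate 4 the call on IFNLR1 was lost (limma adjusted p = 0.0635), leaving 1 rise in this list; the counts of the other 4 lists of pathway genes were as given.

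**Figure D4:**
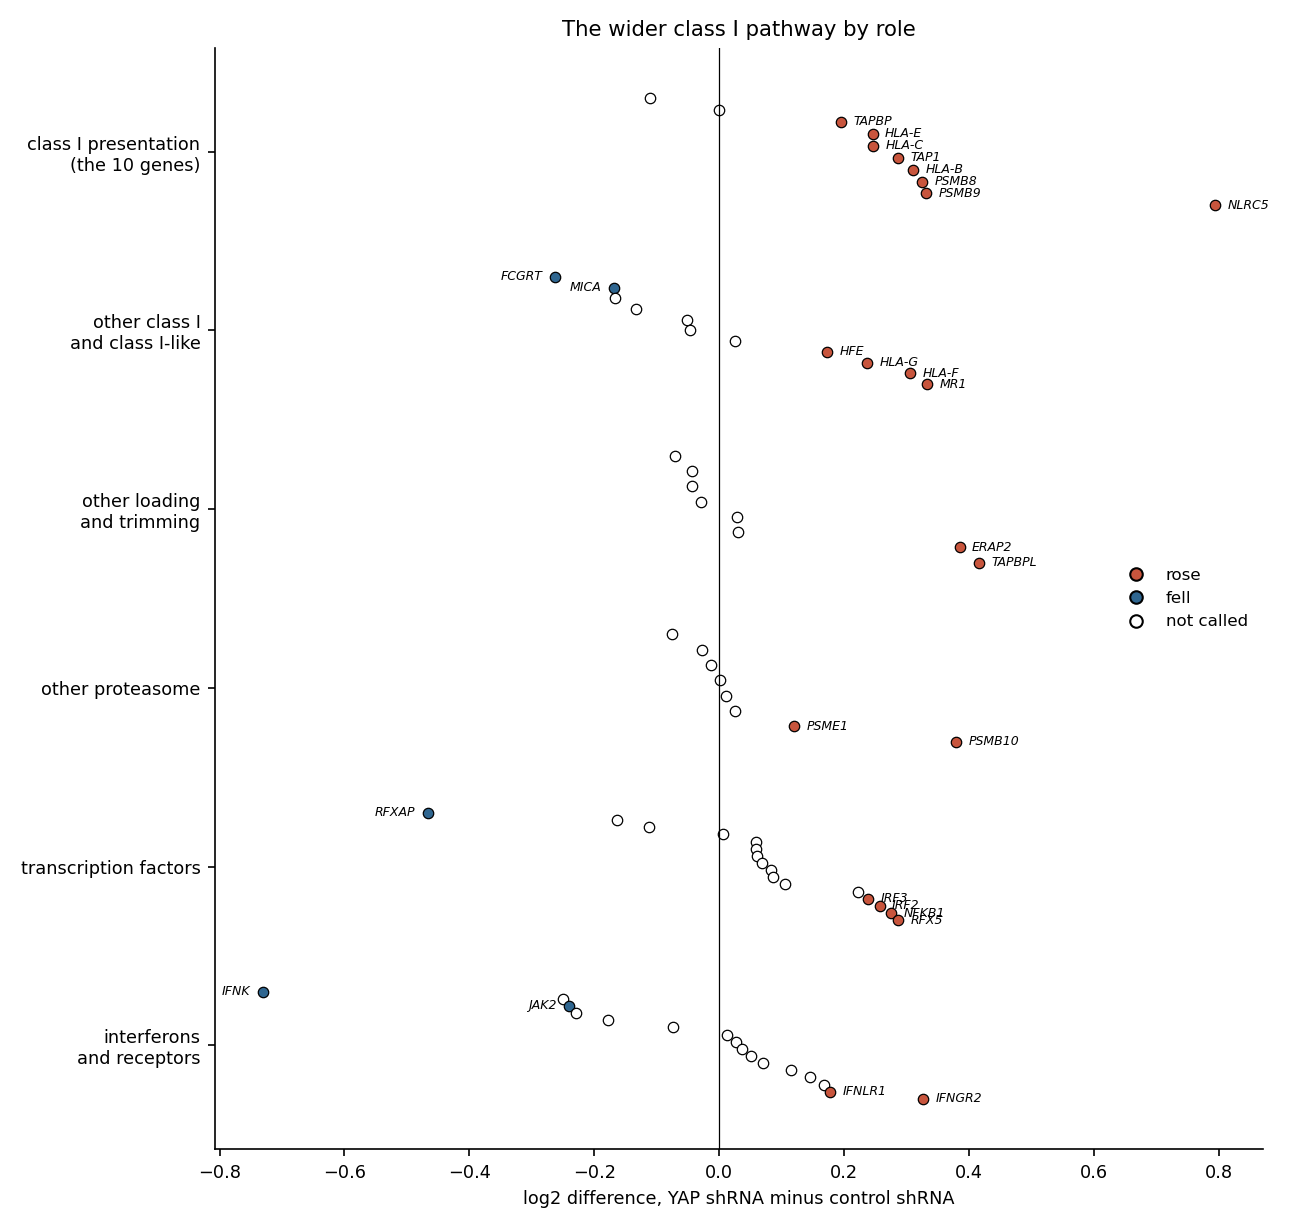
Log2 differences, YAP shRNA minus control shRNA, for the 10 genes and 5 lists of other class I pathway genes, 1 point per gene; red marks genes that rose, blue genes that fell and white genes not called, and vertical position within a row only spreads the points. The 10 genes lie mostly right of 0, with 8 risen. The 5 other lists together have 14 risen and 5 fallen of 59, where 9.49% of all genes rose and 7.17% fell.

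The genes next to the 10 on their chromosomes were also counted. TAP2, PSMB8, TAP1 and PSMB9 lie in that order on chromosome 6, so the uncalled TAP2 stands next to 3 genes that rose. Of the 36 nearest protein-coding genes, 3 on each side of each of the 10, 3 rose (CPNE2, RGL2 and TRIM26) and 1 fell (MICA), with a median of 0.03, where 9.49% of all genes rose and 7.17% fell; the difference from the 10 was not tested. Without control replicate 4, 5 rose and 1 fell. The 892 genes of chromosome 6 had a median of 0.01, with 108 risen and 59 fallen.

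In the arrays as a whole, YAP1 fell by 2.14 with the YAP shRNA (limma adjusted p = 6.15e-07). Duct markers were bright, from 12.63 to 14.20 in control means over 7 genes. Among them CDH1 rose by 0.33 and KRT19 by 0.15, and the others were not called. Their summed level lay between 16.3 and 16.32 in controls and between 16.33 and 16.34 with the YAP shRNA. Control shRNA replicate 4 correlated least with its group, at 0.9967 against 0.9978 to 0.9980 for the other controls. Among the controls it was the highest array for B2M, HLA-B, HLA-C, HLA-E, TAPBP and PSMB8 and the lowest for NLRC5, TAP2 and PSMB9. Without it 8 of the 10 genes still rose and 0 fell. The summed level of 10 leukocyte markers lay between 8.44 and 8.69 in controls and between 8.83 and 9.00 with the YAP shRNA: LYZ and CD14 rose by 0.86 and 0.46, while the pan-leukocyte gene PTPRC, dim at 3.96 in controls, fell by 0.22, a call lost without control replicate 4 (limma adjusted p = 0.0663), and the T cell gene CD3E stood at 3.16. The sum of 6 fibroblast markers lay between 8.82 and 8.98 in controls and between 9.13 and 9.24 with the YAP shRNA: COL1A1 rose by 0.52 from a control mean of 7.95, and the other 5 were not called, from -0.18 for LUM to 0.16 for PDGFRB. The sum of 5 hepatocyte markers lay between 12.73 and 12.80 and then between 12.92 and 12.97, where SERPINA1 rose by 0.19 from a control mean of 12.72 and the other 4 were not called. The sum of 4 endothelial markers overlapped, at 7.14 to 7.44 and 7.31 to 7.54, with 0 called. The part of these in the class I results was not tested. In RNA from whole cultures, fewer cells of a kind and less RNA per cell cannot be told apart.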

How the data were processed

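Per the labels' protocols, RNA of the 8 samples was purified on columns, amplified by a NuGEN system and biotin-labelled for Affymetrix arrays. The authors deposited log2 values of each probe set on each array. That the base is 2 is an inference from the values, which run from 1.72 to 14.89. How background, summarisation and normalization were handled is not given in the sources used here. Array medians lay between 6.22 and 6.25, and no further normalization was applied. Of 54675 probe sets, 41097 had 1 symbol in GEO's platform annotation, 1801 several and 11777 none; 41043 of the first matched RefSeq by Entrez ID, with 0 symbols changed. On arrays, their number limits the precision.

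The fit was limma 3.58.1 (R 4.3.3) across all 19775 genes, with no block and no filter, checked on simulated data. Pairs were compared by two-sided exact permutation tests (scipy 1.17.1). The text names the 10 genes, every called gene of 5 pathway lists, a few others set beforehand (IRF1, RFX5, HLA-F and the proteasome pairs) and called neighbours; ERAP1, the chaperones, RFXANK, MICB and IFNG were named after their values were seen. The members and lists were chosen with earlier results of these data known. Alternatives covered normalization, dim genes, probe set choice, spread models, array weights, thresholds, leaving out single arrays and a replicate block. Figures were drawn with matplotlib 3.10.9.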

Additional observations from a re-analysis of the deposited data

Results flagged for a closer look

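Among 40 genes and pairs of the text, in 80 groups of 4 arrays, a single array stood far from the rest in 10, against about 4 by chance, and none of these was a group of the 10 class I presentation genes. MR1 stood high at 7.83 in control shRNA replicate 4 (7.42 to 7.45 in the other controls) and at 7.92 in YAP shRNA replicate 3 (7.84 to 7.85). NFKB1 was low at 10.33 in control replicate 4 (10.49 to 10.51), MICA low at 11.40 in control replicate 1 (11.46 to 11.47), PSMB5 low at 12.16 in control replicate 2 (12.25 to 12.27) and YAP1 high at 12.77 in control replicate 3 (12.59 to 12.61). Among the YAP shRNA arrays, IRF2 was high at 11.23 in replicate 2 (11.10 to 11.12), and in replicate 4 ERAP2 was high at 11.43 (11.35 to 11.36), PSMB6 high at 12.87 (12.84 to 12.85) and IRF3 low at 10.15 (10.27 to 10.29).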

How the results depend on the processing

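Of the 10 genes, 8 rose and 0 fell with any 1 array left out (8 to 8 and 0 to 0), with quantile normalization, median centring, either limit on dim genes for the rises, every probe set tested, an intensity trend, robust moderation, array weights and a threshold of 0.10. The count of risen genes was 4 of 6 measured without probe sets of suffix _x_at or _s_at, where fewer genes were tested, 5 at a threshold of 0.01 and 7 when probe sets were averaged per gene. The count of fallen genes was 1, TAP2, with genes below the median level left out. Over all genes, 1360 to 2249 rose and 1012 to 1632 fell as arrays were left out, and 1022 rose and 763 fell at a threshold of 0.01.

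Same-numbered arrays did not deviate together from their group means (correlations of -0.17, -0.06, 0.00 and -0.21 over genes). The labels do not say whether they were handled together, and these correlations cannot settle it. With a replicate block, 6 of the 10 genes rose, HLA-C and TAPBP not being called (limma adjusted p = 0.0522 and 0.0696), and 1221 genes rose and 883 fell over all genes. The proteasome shifts ranged over 0.34 to 0.36 for PSMB8 minus PSMB5, 0.31 to 0.33 for PSMB9 minus PSMB6 and 0.36 to 0.42 for PSMB10 minus PSMB7 as arrays were left out; 4 pairs allow no sign-flip p under 0.125. The recount of the lists and neighbours without control replicate 4 was added after the data were seen. Without detection calls, a limit on level was the only way to leave out dim probe sets.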
